A study of Mus musculus with 18 samples.

Results

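The livers of old and young mice that had all been fed a high-fat diet (HFD) were compared by RNA sequencing. The comparison held 9 of the 18 libraries of the series, with 4 from old HFD and 5 from young HFD, chosen by the age and the diet on the labels. Every library came from the whole liver of male C57BL6 mice, and both ages received the HFD, Test Diet 58Y1, for 9 weeks, so that the groups differed by label in age only. The other 9 libraries, from old and young mice on a normal diet (ND), are used below only to ask whether the age change differed between diets. The labels number the libraries of a group as replicates and do not name the animals, so a P value measures the spread between these libraries. The strain label gives no substrain, and the methods of the study name more than 1 source of animals.

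Hepatocytes form the bulk of the liver and carry its lipid, glucose, bile acid and drug metabolism. Kupffer cells, the resident macrophages of the liver, share the tissue with endothelial cells, stellate cells, bile duct cells and small numbers of lymphocytes. Interferons act through receptors found on most of these cells and induce a common set of genes, the interferon-stimulated genes, which restrict viral growth and raise antigen presentation. On a fatty diet hepatocytes take up, store, oxidise and secrete lipid, and they also make fatty acids from sugar under the control of the transcription factor SREBP-1c, encoded by Srebf1.

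The libraries held 23642964 to 36427856 counts in young HFD and 25789898 to 29093946 in old HFD. In an exact permutation test over all splits of 4 against 5 libraries, which can give a two-sided p no lower than 0.00794, the total count did not separate the ages (p = 0.46). The tissue label was checked against 11 tested hepatocyte markers, among them Alb, Apoa1 and Hnf4a. Their summed level was 93730 to 117000 counts per 1000000 counts (CPM) in the young libraries and 74630 to 101300 CPM in the old libraries, and none of the 11 was called in edgeR with all 9 libraries (3 had an unadjusted p under 0.05, and DESeq2 called 1 lower). Without old HFD replicate 3, edgeR called 1 higher. Old HFD replicate 4 stood apart from the rest. Its distance from the mean of its own group, over log2 CPM of all tested genes, was 54.2, compared with 33.7, 30.2 and 40.3 for old HFD replicates 1, 2 and 3 and with 25.3 to 27.5 in young HFD. It also had the lowest scaling factor (0.895, compared with 0.973 to 1.14 in the other libraries) and the highest share of counts in its 20 highest genes (25.4%, compared with 17.0% to 20.4%).

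On HFD, the old livers held more RNA of interferon-stimulated, antigen presentation, lymphocyte and macrophage genes than the young livers, and less RNA of genes for fatty acid synthesis and oxidative phosphorylation. Of 14000 genes with enough counts to test, 2158 were called at an adjusted p under 0.05 in the quasi-likelihood test of edgeR, which is 15.4% of those tested. In old HFD 1354 of them were higher (9.67%) and 804 were lower (5.74%). The rises were larger than the falls. The median absolute log2 fold change was 0.942 among the genes called higher and 0.369 among those called lower, and a change of at least 2-fold was found in 619 genes called higher (4.42% of those tested) and in 56 called lower (0.4%). The median log2 fold change over all tested genes was 0.00109. In CPM, 1410 genes (10.1%) had every old library above every young library, and 1185 (8.46%) had every old library below.

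**Figure D1:**
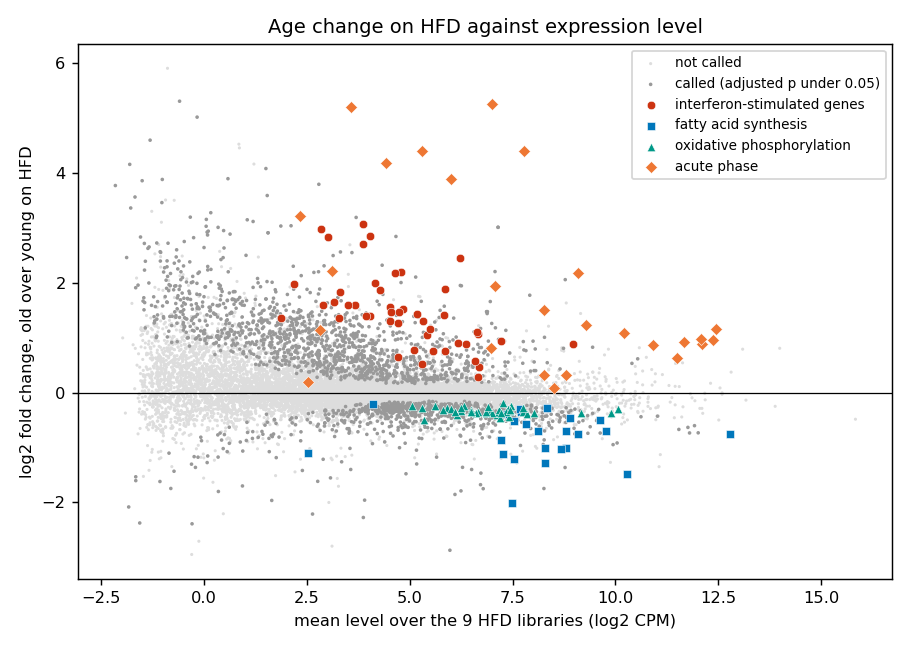
Each point is 1 of the 14000 tested genes, placed by its mean log2 CPM over the 9 HFD libraries (horizontal) and its log2 fold change of old over young (vertical); dark grey points were called, and 4 gene lists are coloured. The interferon-stimulated genes all lie above 0 and the genes of fatty acid synthesis and oxidative phosphorylation all lie below 0, while the acute phase genes reach log2 fold changes of up to 5.25 although only 1 of 26 was called.

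The age calls did not rest on old HFD replicate 4 alone. Without it, 14114 genes were tested and 2043 were called (14.5%), with 1228 higher (8.70%) and 815 lower (5.77%). Of the calls made with all 9 libraries, 1714 (79.4%) were made again, which was 83.9% of the calls without replicate 4, and all 1714 kept their direction. Replicate 4 ended 444 calls when it was left out and 329 genes were called in its absence. None of the 2158 called genes changed sign, and the fold change of 21 of them (0.973%) moved by more than 1.5-fold, compared with 156 of all tested genes (1.11%). Both fits share all libraries other than replicate 4, so the kept direction and the small movement are a description and not independent support. Leaving out other libraries had as large an effect on the count. Without old HFD replicate 3 the count was 1423, without young HFD replicate 3 it was 1270 and without young HFD replicate 2 it was 1318, whereas without old HFD replicate 1 it rose to 2560. Without both old HFD replicates 3 and 4, an alternative added after the data were seen that left 2 old against 5 young libraries, 1139 genes were called and 979 of them had been called with all 9.

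**Figure D2:**
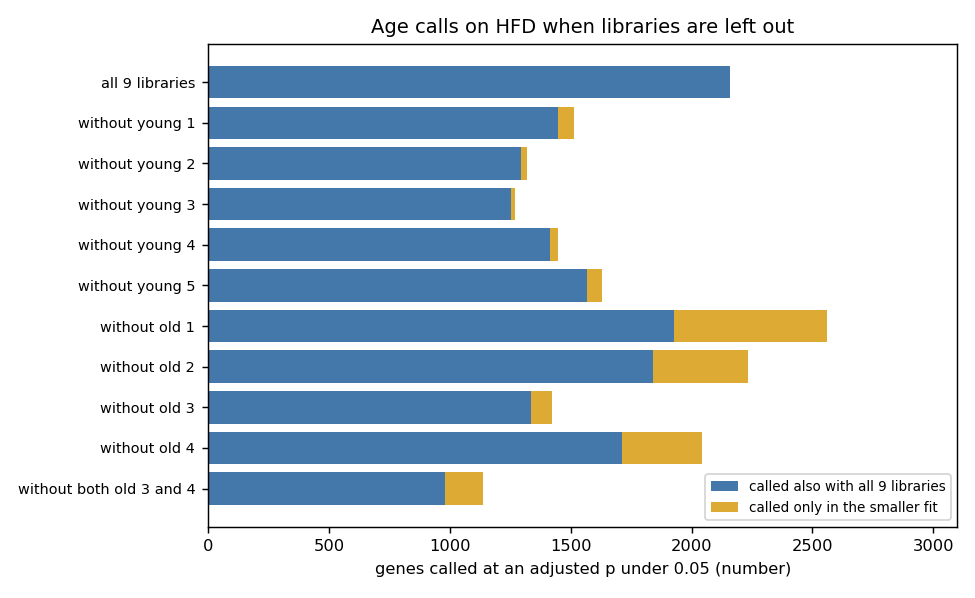
Bars give the number of genes called at an adjusted p under 0.05 with all 9 libraries and in each fit with libraries left out; blue is the number also called with all 9 libraries and yellow the number called only in the smaller fit. The bar without old replicate 4 (2043 genes) is longer than those without old replicate 3 (1423) or any young library (1270 to 1628).

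Old HFD replicates 3 and 4 nevertheless set most extremes of the rise, and replicate 4 set most of those of the fall. Among the genes called higher, the highest of the 4 old values belonged to replicate 3 in 632 genes (46.7%) and to replicate 4 in 538 (39.7%), compared with 65 for replicate 1 and 119 for replicate 2. Over all tested genes these shares were 26.4% for replicate 3 and 30.5% for replicate 4. Among the genes called lower, replicate 4 held the lowest old value in 513 (63.8%, compared with 34.7% over all tested genes). Replicate 3 held it in 172 (21.4%, compared with 22.7% over all tested genes). Each old library was then compared with the young libraries for genes called without it. Of the genes called higher in its absence, old HFD replicate 1 lay above every young library in 76.5%, replicate 2 in 84.5%, replicate 3 in 95.3% and replicate 4 in 87.5%. The same share over all tested genes was 24.1%, 25.6%, 31.3% and 34.0%. Each old library thus lay above every young library in most genes called higher without it. The young libraries were the same ones that had made the calls. The gene sets also differed, with 1616, 1457, 931 and 1228 genes for replicates 1 to 4. These shares therefore do not rank the old libraries and are not an independent check.

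**Figure D3:**
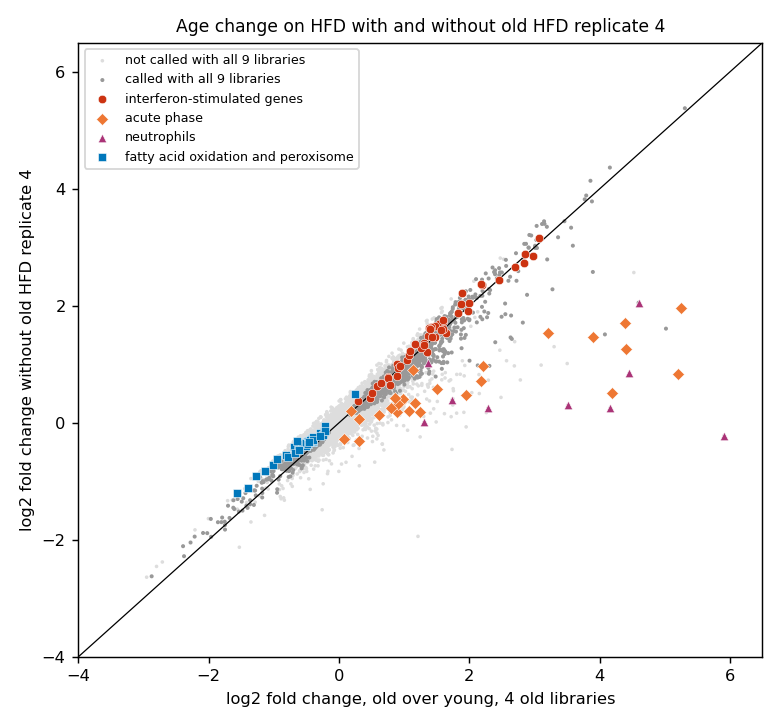
Log2 fold change of old over young for each tested gene with all 4 old libraries (horizontal) and without old HFD replicate 4 (vertical); the line marks equal values, dark grey points were called with all 9 libraries and 4 lists are coloured. Interferon-stimulated genes lie along the line, while acute phase and neutrophil genes fall far below it and genes of fatty acid oxidation lie slightly above it.

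Nearly all interferon-stimulated genes were called higher in the old livers. This list, like the others below, was written with earlier results of these data known, so its counts are a description. Of 46 tested members of the list, 44 were called higher and none lower, set against 9.67% of all tested genes called higher, and the median log2 fold change of the list was 1.41. Every old library lay above every young library in 42 of them, set against 10.1% of all tested genes. Their summed level was 1442 to 1850 CPM in the young libraries and 2984 to 4025 CPM in the old libraries. The count was 42 to 46 when any 1 library was left out. Without old HFD replicate 4 all 46 were called and the median was 1.51, so the rise was as large without the library that stood apart. Replicate 4 had the smallest rise, with a median over the list of 1.10 above the young mean on the log2 scale, compared with 1.37, 1.57 and 1.40 for old HFD replicates 1, 2 and 3.

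Of the 4 genes of lowest adjusted p in the list, Oasl2, Oas1a and Oas1g belong to the oligoadenylate synthetase family, which acts against viral RNA. The level of Oasl2 (chr5:114896934-114912245, mm10, plus strand) was 6.1, 7.61, 6.32, 7.26 and 7.21 CPM in young HFD replicates 1 to 5 and 38.8, 57, 56.9 and 45.6 CPM in old HFD replicates 1 to 4. The old and young values of Oasl2 did not come near each other, and its log2 fold change was 2.85 ± 0.126 (SE; adjusted p = 6.17e-06). Oas1a (chr5:120896257-120907525, minus strand) measured 2.48, 3.09, 2.13, 3.13 and 3.53 CPM in young HFD and 17.7, 20.9, 23.6 and 28 CPM in old HFD, a log2 fold change of 2.97 ± 0.169 (adjusted p = 1.25e-05). The neighbouring Oas1g (chr5:120876142-120887613, minus strand) measured 3.48, 3.78, 2.55, 2.94 and 4.12 CPM in young HFD and 20.4, 20.8, 26.6 and 28.8 CPM in old HFD, a log2 fold change of 2.83 ± 0.157 (adjusted p = 1.25e-05). These paralogs share sequence. In GENCODE release M21, 68.8% of the 31-base words in Oas1a transcripts and 55.1% of those in Oas1g transcripts also occurred in other genes, so the division of reads between them is uncertain. Ifi44 (chr3:151730923-151749959, minus strand), an interferon-induced protein, measured 5.17, 6.22, 4.26, 6.88 and 6.1 CPM in young HFD and 48.8, 62, 41.9 and 39.7 CPM in old HFD, a log2 fold change of 3.07 ± 0.164 (adjusted p = 1.25e-05). For all 4 genes the lowest old value was several times the highest young value.

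The promoters of these genes are shown because the members moved together. A 300-base window from RefSeq (GRCm38.p6), 250 bases before the start site to 50 after it, was matched to 34 of the 46 list members and searched on both strands for GAAA, any 2 bases and GAAA again (TTTC, any 2 bases and TTTC on the other strand), the core of the interferon-stimulated response element, to which interferon regulatory factors bind. Matches could overlap each other. The motif stood in 19 of the 34 windows (55.9%), compared with 357 of 10737 windows of all tested genes (3.32%), 96 of 1019 windows of genes called higher (9.42%) and 15 of 624 windows of genes called lower (2.4%). These shares are a description, since the list was written with earlier results of these data known. Isg15, Oas1a and Oas1g held it, with the matched stretch in capitals, and Oasl2, shown for comparison, had no match to these letters in its window, nor had Ifi44 and Irf7.
Isg15 (chr4:156200769-156201068, minus strand): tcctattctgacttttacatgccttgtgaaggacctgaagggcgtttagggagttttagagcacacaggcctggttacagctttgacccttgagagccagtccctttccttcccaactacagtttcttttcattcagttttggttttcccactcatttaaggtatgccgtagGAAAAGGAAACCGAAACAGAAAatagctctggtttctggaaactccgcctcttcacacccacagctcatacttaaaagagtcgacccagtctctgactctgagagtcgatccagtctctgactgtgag
Oas1a (chr5:120907476-120907775, minus strand): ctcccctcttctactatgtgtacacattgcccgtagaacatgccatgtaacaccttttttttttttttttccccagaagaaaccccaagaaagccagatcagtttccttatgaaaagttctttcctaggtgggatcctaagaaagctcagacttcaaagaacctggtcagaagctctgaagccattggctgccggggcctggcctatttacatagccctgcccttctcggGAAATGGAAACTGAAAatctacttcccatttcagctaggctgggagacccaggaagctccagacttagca
Oas1g (chr5:120887564-120887863, minus strand): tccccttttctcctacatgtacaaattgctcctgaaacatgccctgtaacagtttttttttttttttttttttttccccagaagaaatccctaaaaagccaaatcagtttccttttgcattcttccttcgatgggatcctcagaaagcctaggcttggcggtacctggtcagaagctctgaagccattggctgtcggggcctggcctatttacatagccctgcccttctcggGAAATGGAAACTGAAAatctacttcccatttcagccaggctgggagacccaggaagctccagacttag
Oasl2 (chr5:114896684-114896983, plus strand): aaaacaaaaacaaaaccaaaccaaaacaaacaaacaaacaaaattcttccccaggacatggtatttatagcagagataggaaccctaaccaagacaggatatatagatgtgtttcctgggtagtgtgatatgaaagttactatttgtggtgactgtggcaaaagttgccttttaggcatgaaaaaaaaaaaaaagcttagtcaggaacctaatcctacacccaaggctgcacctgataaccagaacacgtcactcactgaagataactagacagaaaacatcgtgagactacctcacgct
In Isg15 the capitals cover 3 overlapping matches, from 78 to 57 bases before the start site. In Oas1a they cover 2 overlapping matches from 20 to 5 bases before the start site, and in Oas1g the same 16 letters run from 18 to 3 bases before it.

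Further interferon-stimulated genes, named after their values were seen, include regulators of the response. Irf7, the transcription factor that amplifies interferon production, measured 30.8, 38.4, 26.1, 38.4 and 43.7 CPM in young HFD and 212, 230, 137 and 199 CPM in old HFD, a log2 fold change of 2.45 ± 0.181 (adjusted p = 8.39e-05). Isg15, a ubiquitin-like modifier, rose by 2.00 ± 0.189 on the log2 scale (adjusted p = 0.000341), from 7.57 to 10.9 CPM in young HFD to 29.9 to 56.2 CPM in old HFD. Both were called without old HFD replicate 4, at 2.44 and 2.06. Dtx3l and Gbp2 were the 2 members not called. Dtx3l, an E3 ligase, measured 83.7 to 98.9 CPM in young HFD and 93.8 to 129 CPM in old HFD (log2 fold change 0.29, adjusted p = 0.0697), and Gbp2, a guanylate-binding protein, measured 8.09 to 17.7 and 14.2 to 62.1 CPM (log2 fold change 1.39, adjusted p = 0.0549). Without old HFD replicate 4 their adjusted p was 0.0181 and 0.0332, and without old HFD replicate 1 that of Gbp2 was 0.0498.

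Several of the highest fold changes among genes without overlap between the ages also belong to interferon responses. Gvin1, a very large interferon-inducible GTPase, measured 44.3, 66.6, 37.4, 83.7 and 55.9 CPM in young HFD and 367, 464, 548 and 477 CPM in old HFD, a log2 fold change of 3.01 ± 0.231 (adjusted p = 0.000102). The level of Gm4070 was nearly the same in each library (366.7 CPM in old HFD replicate 1, for example), and 99.7% of the 31-base words of Gvin1 occurred in other genes, so that Gvin1, Gm4070 and Gm8989 cannot be counted as separate observations. Tgtp1, a GTPase induced by interferon gamma, measured 9.36, 12.6, 6.74, 23.7 and 8.38 CPM in young HFD and 47.5, 69.5, 185 and 44.2 CPM in old HFD (log2 fold change 2.84 ± 0.531, adjusted p = 0.00969), with 84.4% of its words shared, most with Tgtp2. Ly6a, the surface protein Sca-1, measured 4.22, 7.18, 3.73, 5.49 and 4.47 CPM in young HFD and 45.7, 38.9, 67.7 and 29.4 CPM in old HFD (log2 fold change 3.19 ± 0.265, adjusted p = 0.000194). Among the called genes that did not overlap between the ages and averaged 2 log2 CPM or more, the highest fold change was that of Ntrk2, the receptor for brain-derived neurotrophic factor. Ntrk2 measured 4.71, 1.22, 1.52, 2.4 and 2.77 CPM in young HFD and 22.1, 10.4, 83.8 and 27.7 CPM in old HFD, a log2 fold change of 3.79 ± 0.638 (adjusted p = 0.00648), and it varied more among the old libraries than the interferon genes did. Gvin1, Tgtp1, Ly6a and Ntrk2 were all highest in old HFD replicate 3, and each kept its call without any 1 library.

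Genes of MHC class I presentation, which displays peptides from inside the cell to CD8+ T cells, also rose, by less. Of 20 tested members 16 were called higher and none lower (9.67% of all genes were called higher), with a median log2 fold change of 0.614, and 17 were called without old HFD replicate 4. H2-D1, a classical class I heavy chain, measured 522, 510, 490, 586 and 599 CPM in young HFD and 936, 940, 960 and 1001 CPM in old HFD (log2 fold change 0.83 ± 0.0913, adjusted p = 0.000633). Psmb8, a subunit of the immunoproteasome, measured 24.3, 27.8, 27.1, 38.8 and 31.5 CPM in young HFD and 58.9, 65.8, 69.8 and 59 CPM in old HFD (log2 fold change 1.08 ± 0.124, adjusted p = 0.000889). For both genes every old library lay above every young library. Tapbp, which loads peptides onto class I molecules, rose by 0.72 ± 0.0792 (adjusted p = 0.000618), and the nonclassical H2-T22 rose by 0.82 ± 0.0757 (adjusted p = 0.000217), although 67.4% of the 31-base words of H2-T22 were shared with other genes. B2m, the light chain of all class I molecules, named after its values were seen, measured 1293, 1206, 1159, 1257 and 1235 CPM in young HFD and 2031, 1845, 1967 and 1687 CPM in old HFD, a log2 fold change of 0.61 ± 0.0963 (adjusted p = 0.00367).

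MHC class II presentation, the pathway of macrophages, dendritic cells and B cells, rose as well. Its levels were mostly highest in old HFD replicate 3, and its calls depended on several libraries. Of 13 tested members 10 were called higher and none lower, with a median log2 fold change of 1.23 (9.67% of all tested genes were called higher). The medians over the list were 0.552, 1.07, 1.96 and 0.751 above the young mean in old HFD replicates 1 to 4, and replicate 3 was the highest of all 9 libraries in 11 of the 13 genes. The count stayed at 10 without old HFD replicate 4 but fell to 4 without old HFD replicate 3, with a median of 0.833, and to 3 without young HFD replicate 2 or 3. Without old HFD replicate 1 the count was 13. Ctss, a protease that trims the invariant chain, measured 44.6, 39.8, 31.9, 56.8 and 53.6 CPM in young HFD and 85.3, 90.8, 157 and 131 CPM in old HFD (log2 fold change 1.36 ± 0.219, adjusted p = 0.00495). Cd86, a costimulatory ligand for T cells, measured 4.63, 4.96, 3.54, 4.25 and 4.93 CPM in young HFD and 8.75, 9.38, 10.3 and 7.8 CPM in old HFD (log2 fold change 1.02 ± 0.124, adjusted p = 0.00104). Ifi30, a thiol reductase of the antigen-processing pathway, rose by 1.03 ± 0.19 (adjusted p = 0.00806). Ciita, the master regulator of class II genes, rose by 1.37 ± 0.329 (adjusted p = 0.0224), with 4.59 to 14.4 CPM in old HFD and its highest value in replicate 3, and its call ended without young HFD replicate 1, 2 or 3 (adjusted p up to 0.0575). Cd74, the invariant chain, was chosen after its values were seen. Its levels overlapped between the ages, at 65.9 to 124 CPM in young HFD and 124 to 427 CPM in old HFD, and its call (log2 fold change 1.26, adjusted p = 0.049) ended without 7 of the 9 libraries, reaching an adjusted p of 0.102.

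Most T cell and cytotoxic cell markers were called higher, from very low levels. In whole liver, more cells of a type and more RNA per cell cannot be told apart. Of 18 tested T cell markers 14 were called higher and none lower (9.67% of all tested genes were called higher), with a median log2 fold change of 1.78, and of 10 tested markers of cytotoxic and NK cells 8 were called higher with a median of 2.24. The summed level of the T cell markers was 18.3 to 23.6 CPM in young HFD and 33.3 to 74.0 CPM in old HFD, and that of the cytotoxic and NK markers was 3.77 to 9.15 CPM and 14.6 to 56.9 CPM. Old HFD replicate 3 was the highest of all libraries in 16 of the 18 T cell markers and in all 10 cytotoxic markers. Without replicate 3 the medians were 1.13 and 1.52 and the counts were 10 and 5, and without replicate 4 the counts were 15 and 10. The count of T cell markers was lowest, at 9, without young HFD replicate 2, and that of cytotoxic markers was also 5 without young HFD replicate 1 or 3.

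Cd8a, the coreceptor of cytotoxic T cells, measured 0.408, 0.131, 0.457, 0.618 and 0.409 CPM in young HFD and 3.47, 1.99, 7.57 and 1.52 CPM in old HFD, a log2 fold change of 3.15 ± 0.521 (adjusted p = 0.00492). Cd4, the coreceptor of helper T cells, measured 0.572, 1.57, 0.951, 1.43 and 1.37 CPM in young HFD and 3.61, 0.919, 3.69 and 0.716 CPM in old HFD and was not called (log2 fold change 0.95, adjusted p = 0.232). Cd8a and Cd4 were chosen after their values were seen, and in these libraries the ages were apart for Cd8a and overlapped for Cd4. Of the T cell receptor complex, Cd3e measured 0.327, 0.087, 0.228, 0.657 and 0.292 CPM in young HFD and 1.64, 0.804, 3.45 and 0.843 CPM in old HFD (log2 fold change 2.40 ± 0.55, adjusted p = 0.0183). Its partner Cd3g rose by 2.38 ± 0.483 (adjusted p = 0.0106), and Cd3d rose by 1.86 ± 0.525 (adjusted p = 0.0392), a call that ended without 6 of the 9 libraries, among them old HFD replicate 3 (log2 fold change 1.15, adjusted p = 0.106). Zap70, the kinase of the T cell receptor, rose by 0.37 ± 0.0809 (adjusted p = 0.015). Ccl5, a chemokine of activated T and NK cells, measured 0.953, 1.13, 0.495, 1.93 and 0.613 CPM in young HFD and 6.61, 4.21, 21.1 and 2.99 CPM in old HFD (log2 fold change 3.12 ± 0.635, adjusted p = 0.0128). Prf1, which encodes perforin, rose by 2.72 ± 0.374 (adjusted p = 0.00211) from 0.087 to 0.152 CPM to 0.464 to 1.31 CPM. Klrk1, the activating receptor NKG2D, rose by 0.87 ± 0.148 (adjusted p = 0.00495). Gzmb, which encodes granzyme B, rose by 2.23 ± 0.615 (adjusted p = 0.0374), but its call ended without 5 of the 9 libraries, to an adjusted p of up to 0.0873. Ncr1, a receptor particular to NK cells, had too few counts to test, with 64 in all 9 libraries.

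B cell markers had higher summed levels in all 4 old libraries (40.3, 43.1, 44.8 and 74.7 CPM in replicates 1 to 4) than in the young libraries (16.9 to 25.4 CPM), and the highest level was in replicate 4. Of 13 tested members 7 were called higher and none lower (9.67% of all tested genes were called higher), with a median log2 fold change of 1.02 (0.803 without old HFD replicate 4, with 6 called). Cd79a, part of the B cell receptor, measured 1.63, 0.783, 1.03, 0.772 and 1.11 CPM in young HFD and 2, 2.87, 2.35 and 2.36 CPM in old HFD (log2 fold change 1.15 ± 0.236, adjusted p = 0.011). Ms4a1, which encodes CD20, rose by 1.02 ± 0.206 (adjusted p = 0.0101), and the inhibitory receptors Cd22 and Cd72 rose by 1.29 ± 0.17 (adjusted p = 0.00166) and 1.24 ± 0.151 (adjusted p = 0.00109). For Cd72, 41.6% of the exon bases overlap exons of Tesk1 on the other strand, and the counting did not use strand.

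Most macrophage markers were called higher in old HFD. Of 16 tested markers of Kupffer cells and resident macrophages 11 were called higher and 1 lower, with a median of 0.769, and of 17 tested markers of monocyte-derived and lipid-associated macrophages 13 were called higher and none lower, with a median of 1.58. Over all tested genes 9.67% were called higher and 5.74% lower. Without old HFD replicate 4 these counts were 9 and 11 called higher. Vsig4, the complement receptor of Kupffer cells, measured 38.6, 35.5, 29.1, 41.4 and 49.6 CPM in young HFD and 66.4, 55.6, 79.1 and 93.4 CPM in old HFD (log2 fold change 0.92 ± 0.173, adjusted p = 0.00869). Clec4f, a lectin particular to Kupffer cells in the mouse, rose by 0.55 ± 0.16 (adjusted p = 0.0424), but its call ended without 7 of the 9 libraries, among them old HFD replicate 4 (log2 fold change 0.40, adjusted p = 0.0865). Timd4, a receptor of long-lived Kupffer cells, measured 6.85 to 12.1 CPM in young HFD and 6.07 to 11.4 CPM in old HFD and was not called (log2 fold change -0.24, adjusted p = 0.439). The general macrophage marker Adgre1, which encodes F4/80, rose by 0.88 ± 0.157 (adjusted p = 0.0069). The complement genes C1qa and C1qb rose by 1.07 ± 0.191 (adjusted p = 0.00715) and 1.01 ± 0.182 (adjusted p = 0.00724), and Spic, the transcription factor of iron-recycling macrophages, rose by 1.15 ± 0.198 (adjusted p = 0.0054).

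Cd163, the scavenger receptor for haemoglobin on resident macrophages, was the member of that list called lower. It measured 26.8, 23.4, 24.5, 36.3 and 43.5 CPM in young HFD and 16.4, 5.7, 2.04 and 7.67 CPM in old HFD, and its log2 level fell by 1.96 ± 0.494 (adjusted p = 0.0299). Every old library lay below every young library, but the call ended without any young library and without old HFD replicate 2 or 4, with an adjusted p of 0.051 to 0.0669. Among the monocyte-derived and lipid-associated macrophage markers, Ms4a7 measured 1.36, 1.35, 0.609, 0.541 and 0.817 CPM in young HFD and 4.74, 5.21, 6.9 and 4.47 CPM in old HFD (log2 fold change 2.5 ± 0.276, adjusted p = 0.000633). Trem2, a lipid-sensing receptor, measured 1.17, 0.826, 1.9, 1.31 and 2.31 CPM in young HFD and 4.78, 2.95, 10.5 and 4.8 CPM in old HFD (log2 fold change 1.93 ± 0.391, adjusted p = 0.0111). Gpnmb, a glycoprotein of lipid-laden macrophages, measured 1.23, 0.609, 1.14, 0.579 and 1.02 CPM in young HFD and 3.61, 4.94, 22.1 and 2.27 CPM in old HFD (log2 fold change 3.15 ± 0.68, adjusted p = 0.0166). Old HFD replicate 3 was the highest library for all 3 genes. Lpl, which releases fatty acids from lipoproteins, rose by 1.37 ± 0.212 (adjusted p = 0.00417). Lgals3, a galectin of phagocytes, rose by 1.29 ± 0.197 (adjusted p = 0.00353), and Atp6v0d2, a subunit of the lysosomal proton pump, rose by 1.88 ± 0.27 (adjusted p = 0.00282). Ccr2, the receptor that draws monocytes into tissue, measured 3.95, 2.44, 3.88, 5.99 and 4.96 CPM in young HFD and 6.28, 9.53, 21.9 and 21.4 CPM in old HFD (log2 fold change 1.80 ± 0.394, adjusted p = 0.0171).

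Dendritic cell markers and chemokines were also called higher in part. Of 13 tested dendritic cell markers 7 were called higher and none lower, set against 9.67% of all tested genes called higher. Old HFD replicate 3 was the highest library in 8 of the 13, with a median over the list of 1.25 above the young mean, compared with 0.535 to 0.643 in the other old libraries, and the median log2 fold change was 0.766 with and 0.567 without it. Xcr1, the receptor of cross-presenting dendritic cells, measured 0.348 to 0.723 CPM in young HFD and 0.716 to 1.76 CPM in old HFD (log2 fold change 1.52 ± 0.313, adjusted p = 0.011). Flt3, the growth factor receptor of dendritic cell precursors, rose by 1.70 ± 0.301 (adjusted p = 0.00606). Bst2, a marker of plasmacytoid dendritic cells that interferon also induces, rose by 1.17 ± 0.0976 (adjusted p = 0.000139). Clec9a, a receptor for dead cells, rose by 0.49 ± 0.136 (adjusted p = 0.0372), a call that ended without 7 of the 9 libraries (adjusted p up to 0.095). Of 35 tested chemokines, cytokines and their receptors 12 were called higher and none lower, and this count was 6 or 7 without any young library and 6 without old HFD replicate 3. Cxcl13, which draws B cells into lymphoid aggregates, measured 1.33, 1.22, 0.381, 1.35 and 0.846 CPM in young HFD and 7.21, 6.81, 11.3 and 24.6 CPM in old HFD, a log2 fold change of 3.59 ± 0.468 (adjusted p = 0.00215) and of 3.03 without old HFD replicate 4. Cxcl16, Ccl6 and Ccl9, which attract T cells and myeloid cells, rose by 0.95 ± 0.135 (adjusted p = 0.00238), 1.66 ± 0.299 (adjusted p = 0.00806) and 1.08 ± 0.172 (adjusted p = 0.00431).

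**Figure D4:**
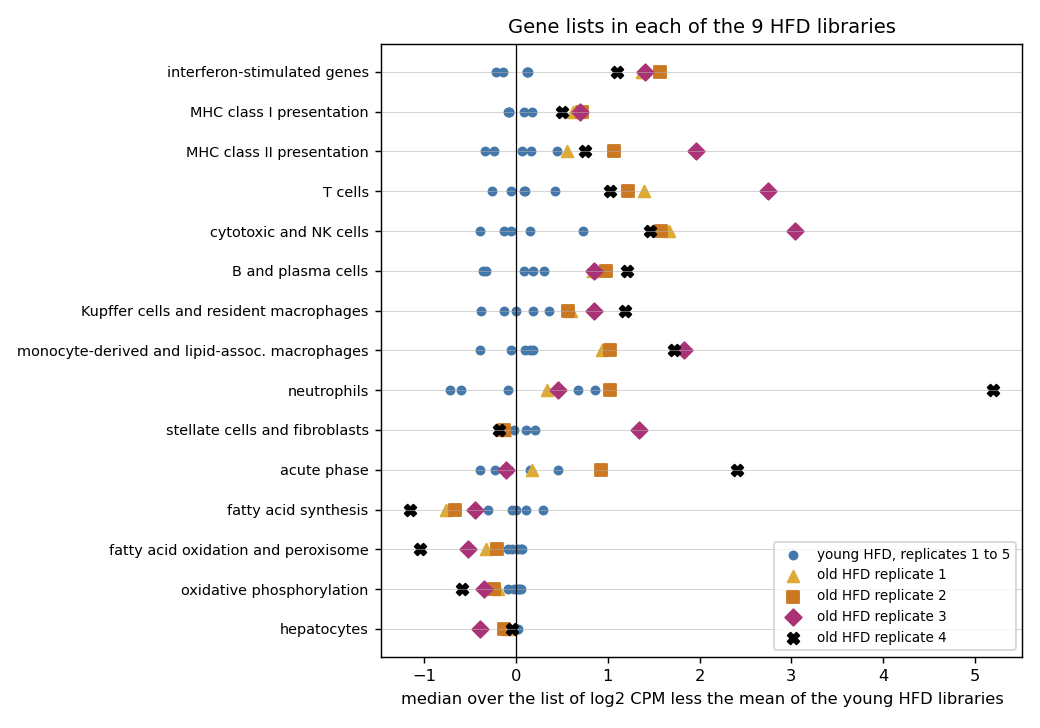
For 15 gene lists (rows), each symbol is 1 library, placed by the median over the list of its log2 CPM less the mean of the young HFD libraries; blue circles are young HFD and the 4 other symbols are old HFD replicates 1 to 4. All 4 old libraries lie to the right of the young libraries for interferon-stimulated genes (1.10 to 1.57), whereas the neutrophil and acute phase lists are farthest to the right in old replicate 4 (5.20 and 2.41) and the stellate cell list only in old replicate 3 (1.34).

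Old HFD replicate 4 had the highest levels of most neutrophil and acute phase genes. The acute phase proteins are secreted by hepatocytes during inflammation. For neutrophil markers the medians over the list were 0.34, 1.02, 0.454 and 5.20 above the young mean in old HFD replicates 1 to 4, and replicate 4 was the highest of all libraries in 9 of the 9 tested genes. S100a8, an abundant neutrophil protein, measured 0.735, 0.304, 0.457, 1.66 and 1.6 CPM in young HFD and 1.44, 1.84, 1.98 and 81.2 CPM in old HFD (log2 fold change 4.46, adjusted p = 0.0595), and its partner S100a9 measured 106 CPM in old HFD replicate 4 and at most 3.18 CPM elsewhere. Of the 9 genes 2 were called higher (9.67% of all tested genes), Csf3r and Cd177, the second named after its values were seen. Csf3r, the receptor for granulocyte colony-stimulating factor, measured 3.78, 2.87, 2.4, 3.55 and 5.28 CPM in young HFD and 6.34, 7.5, 8.24 and 15.2 CPM in old HFD (log2 fold change 1.37 ± 0.291, adjusted p = 0.0135). Cd177 had a log2 fold change of 4.6 with and 2.05 without old HFD replicate 4 (adjusted p = 0.0374 and 0.0199), and its call ended without any young library or without old HFD replicate 3 (adjusted p up to 0.0837). The median of the list was 3.51 with and 0.302 without old HFD replicate 4, and the count was 1 without any young library or old HFD replicate 3, 5 without old HFD replicate 1 and 4 without old HFD replicate 2. Ly6g, the marker used to sort neutrophils, had 26 counts in all 9 libraries, with 23 in the highest, and was not tested.

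Of 26 acute phase genes only Orm3 was called (9.67% of all tested genes were called higher), although the median log2 fold change of the list was 1.15. The medians over the list were 0.169, 0.93, -0.108 and 2.41 from the young mean in old HFD replicates 1 to 4, and at most 0.46 in a young library, so replicate 2 was also above the young range. Old HFD replicate 4 was the highest library in 25 of the 26, and without it the median was 0.421 and the call of Orm3, an orosomucoid, went from an adjusted p of 0.0481 to 0.119 (log2 fold change 3.21 and 1.54). Orm3 also lost its call without any of young HFD replicates 1 to 4 or old HFD replicate 3 (adjusted p 0.0519 to 0.119). Without replicate 4 the only call was Cp, which encodes ceruloplasmin and was named after its values were seen (log2 fold change 0.43, adjusted p = 0.0297). Leaving out old HFD replicate 1 gave 11 calls in the list. Saa2, a serum amyloid A protein, measured 71.7, 20.4, 35.7, 60.8 and 148 CPM in young HFD and 39.6, 684, 76.2 and 9482 CPM in old HFD, with a log2 fold change of 5.25 ± 1.56 (adjusted p = 0.0523), and of 1.97 (adjusted p = 0.222) without replicate 4. Old HFD replicate 2 was also high for Saa2, while old HFD replicates 1 and 3 lay within the young range. The metallothionein Mt1 measured 950 CPM in replicate 4 and at most 35 CPM in the other libraries. Its neighbour Mt2 measured 15.5, 2.44, 5.37, 3.79 and 5.6 CPM in young HFD and 5.08, 21.4, 9.4 and 950 CPM in old HFD (adjusted p = 0.0567). Saa1, Orm2 and Lcn2, an iron-binding protein of inflammation, measured 9770, 1615 and 2025 CPM in replicate 4, and their highest values in the other 8 libraries were 1089, 82.9 and 209 CPM. Isyna1, an inositol synthase, and Dnajc12, a co-chaperone, were at 117 and 110 CPM there and at most 14.8 and 19.4 CPM elsewhere. Saa1 and Saa2 share 46.8% and 44.5% of their 31-base words with other genes, most with each other.

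Replicate 4 was also the lowest library for a set of metabolic genes. Car3, a carbonic anhydrase of hepatocytes and adipocytes, measured 4634, 4271, 4857, 4091 and 3520 CPM in young HFD and 2398, 1837, 2399 and 63.5 CPM in old HFD. Every old library lay below every young library. The fall of Car3 was not called with all 9 libraries (log2 fold change -1.35 ± 0.745, adjusted p = 0.246), but it was called without replicate 4 (log2 fold change -0.95, adjusted p = 0.00246). The carboxylesterase gene Ces1f measured 363 to 430 CPM in young HFD and 328, 328, 267 and 15.8 CPM in old HFD. Hamp, which encodes the iron hormone hepcidin, measured 4.93 CPM in replicate 4 and 33.6 to 398 CPM in the other libraries, and Hamp2 measured 0.379 CPM and 5.01 to 24.4 CPM. Cidec, a lipid droplet protein that rises in steatosis, measured 1.18 CPM in replicate 4 and 19.3 to 62.3 CPM elsewhere, and Cfd, the adipokine adipsin, measured 0.126 CPM and 4.74 to 67.5 CPM. The glutathione transferase genes Gsta1 and Gsta2 measured 0.253 and 0.885 CPM in replicate 4 and 2.01 to 24.3 CPM and 2.8 to 35.8 CPM elsewhere, with 92.9% and 60.7% of their 31-base words shared with other genes. In all, 185 genes were at least 2-fold higher in replicate 4 than in each of the other 8 libraries and 198 were at least 2-fold lower. For old HFD replicate 3 these counts were 139 and 11, and for the other 7 libraries at most 2 and 28.

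Old HFD replicate 3 was set apart by other genes. Of 21 tested markers of stellate cells and fibroblasts, the collagen-producing cells of the liver, none was called in edgeR with all 9 libraries (9.67% of all tested genes were called higher and 5.74% lower), and replicate 3 was the highest library in 19. At an unadjusted p under 0.05, 1 was higher and 1 lower, and DESeq2 called 1 higher and 1 lower. The medians over the list were -0.122, -0.127, 1.34 and -0.185 above the young mean in old HFD replicates 1 to 4. Col1a1, the main chain of collagen I, measured 28, 11, 16.1, 15.1 and 11.7 CPM in young HFD and 8.82, 19, 82.4 and 14.9 CPM in old HFD (log2 fold change 0.93 ± 0.622, adjusted p = 0.338). Pdgfrb, a stellate cell receptor, measured 11.5 to 13.5 CPM in young HFD and 11.7, 15.4, 32.2 and 11.1 CPM in old HFD, and Lrat, which stores vitamin A, measured 29.5 to 47.8 and 26.1, 28.1, 58.9 and 15.6 CPM. The same library had the lowest summed level of hepatocyte markers (74630 CPM) and was the lowest in 8 of the 11, and it was the highest in 25 of 34 cell cycle genes. Of these 34 genes 31 had a fold change above 0 and 1 was called with all 9 libraries (9.67% of all tested genes were called higher), while 10 were called without old HFD replicate 1, with a median of 0.66. The 1 gene was Top2a, the topoisomerase of dividing cells, with a log2 fold change of 0.99 ± 0.272 (adjusted p = 0.036), whose call ended without 6 of the 9 libraries (adjusted p up to 0.095). The part of these markers in the rise of lymphocyte and class II genes in replicate 3 was not tested.

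Over all tested genes 9.67% were called higher and 5.74% lower. No endothelial marker among 16 was called in edgeR with all 9 libraries, where 1 had an unadjusted p under 0.05, and 1 was called lower in DESeq2. In edgeR 1 was called lower without old HFD replicate 2 or 4, and 1 higher without old HFD replicate 1. Stab2, Clec4g and Pecam1 had log2 fold changes of -0.13, -0.03 and 0.16. Of 10 bile duct markers, Sox9, a transcription factor of duct and progenitor cells, measured 5.23, 4.87, 4.49, 5.56 and 5.49 CPM in young HFD and 10.3, 9.65, 12.8 and 18.3 CPM in old HFD (log2 fold change 1.31 ± 0.177, adjusted p = 0.00189). The keratin gene Krt23, chosen after its values were seen, fell by 2.39 ± 0.567 (adjusted p = 0.0208), and the duct markers Krt19, Krt7 and Epcam were not called (adjusted p = 0.464, 0.193 and 0.124). Alas2, the haem enzyme of red cells, fell by 0.57 ± 0.0991 (adjusted p = 0.0054), while 15.5% of its exon bases overlap genes on the other strand, and the red cell membrane gene Slc4a1 measured 0.263 to 0.609 CPM in young HFD and 0.167, 0.383, 0.549 and 3.2 CPM in old HFD, with its highest value in replicate 4. The pancreas and adipocyte markers Prss2, Pnlip, Adipoq, Plin1 and Lep had 0 to 3 counts each over all 9 libraries, and the pancreatic elastase gene Cela1 was not called (log2 fold change -0.88, adjusted p = 0.141).

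Genes of fatty acid synthesis had lower estimated levels in old HFD, and the list as a whole was not tested. All 24 tested members had a fold change below 0, 11 were called lower and none higher (5.74% of all tested genes were called lower), and the median log2 fold change was -0.73. With old HFD replicate 4 left out, 13 were called with a median of -0.58, and the count was 10 to 13 without any 1 library. Srebf1, which encodes SREBP-1c, measured 476, 519, 494, 717 and 642 CPM in young HFD and 264, 274, 325 and 248 CPM in old HFD, and its log2 level fell by 1.03 ± 0.144 (adjusted p = 0.00217). Thrsp, a regulator of lipogenesis, measured 286, 184, 409, 426 and 445 CPM in young HFD and 87.9, 61, 136 and 59.9 CPM in old HFD and fell by 2.02 ± 0.334 (adjusted p = 0.0054). Pklr, the liver pyruvate kinase, measured 516, 341, 626, 457 and 443 CPM in young HFD and 204, 192, 247 and 139 CPM in old HFD and fell by 1.29 ± 0.198 (adjusted p = 0.00359). For these 3 genes every old library lay below every young library. Tkfc, which phosphorylates glyceraldehyde from fructose, fell by 0.70 ± 0.111 (adjusted p = 0.00387). The enzymes Acly and Fasn, chosen after their values were seen, fell by 1.01 ± 0.208 (adjusted p = 0.0114) and 1.49 ± 0.277 (adjusted p = 0.00774), with Fasn at 1712, 1292, 2629, 2059 and 2530 CPM in young HFD and 697, 615, 1104 and 491 CPM in old HFD. Scd1, the desaturase, named for the same reason, overlapped between the ages, at 6320 to 14190 CPM in young HFD and 3093 to 7177 CPM in old HFD, and was not called (log2 fold change -0.76, adjusted p = 0.12).

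The genes that fell most without overlap between the ages included further metabolic enzymes and carriers. G6pc, the last enzyme of glucose release, measured 711, 555, 482, 499 and 411 CPM in young HFD and 142, 168, 165 and 157 CPM in old HFD and fell by 1.75 ± 0.151 (adjusted p = 0.00016). Mfsd2a, a carrier of lysophospholipids, measured 140, 125, 149, 101 and 108 CPM in young HFD and 28.7, 49.8, 37 and 22 CPM in old HFD and fell by 1.86 ± 0.229 (adjusted p = 0.00163). Hsd17b6, a steroid dehydrogenase, measured 141, 170, 128, 169 and 76.1 CPM in young HFD and 44.7, 42.5, 46.3 and 24.1 CPM in old HFD and fell by 1.79 ± 0.27 (adjusted p = 0.00388). All 3 were lowest in old HFD replicate 4 or, for G6pc, in old HFD replicate 1, and their calls held without any 1 library. The cytochrome genes Cyp2b9 and Cyp2b13, which are higher in female than in male mouse liver, fell by 2.88 ± 0.566 (adjusted p = 0.0118) and 2.21 ± 0.573 (adjusted p = 0.0331). Cyp2b9 measured 263, 178, 138, 168 and 136 CPM in young HFD and 56.9, 9.19, 19.6 and 10.2 CPM in old HFD, and the call of Cyp2b13 ended without 6 of the 9 libraries (adjusted p up to 0.0822). Hcn3, an ion channel gene that lies next to Pklr, fell by 2.28 ± 0.408 (adjusted p = 0.00835), and 17.1% of its exon bases overlap Pklr on the other strand, which the counting did not separate. Tymp, thymidine phosphorylase, fell by 1.68 ± 0.149 (adjusted p = 0.000189), and it overlaps Sco2 over 42% and Ncaph2 over 26.3% of its exon bases.

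Genes of oxidative phosphorylation, the respiratory chain of mitochondria, fell by a small amount that was largest in old HFD replicate 4. All 40 tested members had a fold change below 0, 31 were called lower (5.74% of all tested genes) and none higher, and the median was -0.34 with a range of -0.50 to -0.19. Every old library lay below every young library in 36 of the 40 (8.46% of all tested genes), and old HFD replicate 4 was the lowest of all libraries in 37. The medians over the list were -0.197, -0.239, -0.354 and -0.584 from the young mean in old HFD replicates 1 to 4. With old HFD replicate 4 left out, 30 were called with a median of -0.27. The count was lowest without young HFD replicate 1, at 15, was 16 to 19 without young HFD replicate 2, 3 or 4, and was 18 without old HFD replicate 3. Cyc1, of complex III, measured 164, 174, 179, 172 and 162 CPM in young HFD and 131, 127, 123 and 110 CPM in old HFD and fell by 0.47 ± 0.0692 (adjusted p = 0.00279). Sdhd, of complex II, fell by 0.45 ± 0.0781 (adjusted p = 0.0054), Ndufb10, of complex I, by 0.42 ± 0.0744 (adjusted p = 0.00624), and Atp5o, of the ATP synthase, by 0.36 ± 0.0648 (adjusted p = 0.00662).

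Fewer genes of fatty acid oxidation were called with old HFD replicate 4 than without it. Of 43 tested genes of mitochondrial and peroxisomal fatty acid oxidation 13 were called lower and none higher (5.74% of all tested genes were called lower), 30 had every old library below every young library (8.46% of all tested genes), and the median was -0.50. Without old HFD replicate 4 the median was -0.34 and 24 were called, and without old HFD replicate 2, 21 were called. The count was 0 to 6 without any young library and 3 without old HFD replicate 3. Replicate 4 was the lowest of all libraries in 41 of the 43, and the medians over the list were -0.326, -0.204, -0.528 and -1.05 in old HFD replicates 1 to 4. Hadha, of the mitochondrial trifunctional protein, measured 494, 466, 476, 465 and 456 CPM in young HFD and 362, 386, 331 and 247 CPM in old HFD and fell by 0.51 ± 0.121 (adjusted p = 0.0207). Its log2 fold change without replicate 4 was -0.39 (adjusted p = 0.00781). Acads, the short-chain dehydrogenase, fell by 0.42 ± 0.0998 (adjusted p = 0.0204), Hadh, the next enzyme of the cycle, by 0.52 ± 0.134 (adjusted p = 0.027), and the peroxisomal carrier Abcd3 by 0.62 ± 0.157 (adjusted p = 0.0256). Each of these 4 calls ended without some of the libraries (1 for Hadha to 5 for Hadh), young HFD replicate 3 among them each time, with an adjusted p of 0.0502 to 0.0641.

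Branched-chain amino acid degradation, which feeds the same mitochondria, had 8 of 23 tested members called lower (5.74% of all tested genes) and none higher, with a median of -0.28. These calls lay close to the threshold. The count was 0 to 2 without any young library, 1 without old HFD replicate 3, 15 without old HFD replicate 1 and 7 without old HFD replicate 4. Bckdha, of the branched-chain ketoacid dehydrogenase, fell by 0.39 ± 0.0993 (adjusted p = 0.0264), with 61.7% of its exon bases overlapping B3gnt8 on the other strand. Hibch, Mccc2 and Pcca, later enzymes of these pathways, fell by 0.30 ± 0.0782 (adjusted p = 0.0305), 0.28 ± 0.0767 (adjusted p = 0.0357) and 0.58 ± 0.164 (adjusted p = 0.0397), and each of the 4 calls ended without 5 to 7 of the 9 libraries (adjusted p up to 0.0861).

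Of 22 genes of bile acid synthesis and transport 4, all of them carriers, were called lower and none higher (5.74% of all tested genes were called lower), with a median of -0.21, and the same number was called without old HFD replicate 4. Abcg5 and Abcg8, which together export sterols into bile, measured 96.3, 101, 107, 103 and 80.3 CPM and 138, 158, 158, 142 and 114 CPM in young HFD and 66, 63.5, 52.9 and 42.1 CPM and 97, 95.2, 71.3 and 56.8 CPM in old HFD. They fell by 0.79 ± 0.133 (adjusted p = 0.00506) and 0.83 ± 0.164 (adjusted p = 0.0101), with every old library below every young library for both. Slc10a1, the uptake carrier of bile acids, fell by 0.75 ± 0.136 (adjusted p = 0.00643). Slco1a4, an organic anion carrier, fell by 1.05 ± 0.272 (adjusted p = 0.0314), a call that ended without young HFD replicate 1, 2 or 3 or old HFD replicate 2 (adjusted p up to 0.0704). Of 22 genes of lipid droplets and uptake, Lpl was called higher and 4 were called lower. The 4 were Mttp, which loads lipid onto lipoproteins, Fitm2, which forms droplets, Abhd5, which activates their lipase, and Vldlr, a lipoprotein receptor. Mttp fell by 0.41 ± 0.0859 (adjusted p = 0.0116) and kept its call without any 1 library. Fitm2, Abhd5 and Vldlr fell by 0.64, 0.23 and 1.62 (adjusted p = 0.0313, 0.032 and 0.0363), and their calls ended without 5 to 7 of the 9 libraries (adjusted p up to 0.0925).

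In several further lists most calls lay close to the threshold and ended without any of several libraries, while the fold changes kept their sign. Their counts stand against 9.67% of all tested genes called higher and 5.74% called lower. Of 35 cytochrome P450 genes, Cyp2g1, named after its values were seen, was called higher (log2 fold change 1.38, adjusted p = 0.0305), a call that ended without 6 of the 9 libraries, and 4 were called lower. Cyp2d22, Cyp2d40, Cyp2j5 and Cyp4a14 were those called lower, with falls of 0.35, 0.45, 0.38 and 1.37 and adjusted p of 0.0232 to 0.041, and none of them stayed called without young HFD replicate 2 or 3. Of 36 phase 2 enzymes and transporters only the carboxylesterase genes Ces3a and Ces3b were called lower (falls of 0.44 and 0.42), and of 24 genes of cholesterol synthesis only Stard4 and Ebp (falls of 0.43 and 0.27), and each of these 4 calls ended without 6 to 8 of the 9 libraries. The medians of these 3 lists were -0.12, -0.23 and -0.10. In the circadian clock list 2 of 19 genes were called, Per1 and Per2, the negative arm of the clock, which fell by 0.57 and 0.75 (adjusted p = 0.0361 and 0.0493) and lost their calls without 6 and 7 of the 9 libraries. Of 27 complement and coagulation genes only C2, of the classical complement pathway, was called (log2 fold change 0.60 ± 0.13, adjusted p = 0.014), with 42.8% of its exon bases overlapping another gene on the same strand. In the p53 list Btg2, Sesn1 and Lmnb1 were called higher among 24, and all 3 calls ended without 5 to 7 of the 9 libraries.

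Genes that differ between the sexes or along the liver lobule had calls in both directions, where 9.67% of all tested genes were called higher and 5.74% lower. Of 19 male-biased genes 1 was called higher and 2 lower, and of 19 female-biased genes 1 was called higher and 3 lower. The summed level of the female-biased genes was 1145 to 2037 CPM in young HFD and 634.9 to 1148 CPM in old HFD, and 5 of the 19 had every old library below every young library, set against 8.46% of all tested genes. Old HFD replicate 4 had a median over the male-biased list of -1 and over the pericentral list of -0.552 from the young mean, and it was the lowest library in 11 of 20 pericentral genes. Selenbp2, a selenium-binding protein, rose by 1.13 ± 0.262 (adjusted p = 0.0203), with 59.3% of its 31-base words shared with other genes, and its call ended without old HFD replicate 3 (adjusted p = 0.0508). Nudt7, a peroxisomal hydrolase of coenzyme A, and Mup3, a urinary protein, fell by 0.70 and 0.74 (adjusted p = 0.0347 and 0.0347), and both calls ended without 7 of the 9 libraries. Of the female-biased genes, Atp6v0d2 was the one called higher and Cyp2b9, Cyp2b13 and Cyp4a14 were those called lower. Of 20 pericentral genes 2 were called higher, Rhbg and Slc13a3, a dicarboxylate carrier that rose by 1.66 ± 0.42 (adjusted p = 0.0303) with a call that ended without young HFD replicate 1, 2, 3 or 4. Of 20 periportal genes, Ctsc, a lysosomal protease, was called higher (log2 fold change 0.94 ± 0.162, adjusted p = 0.00565) and 3 were called lower. These were Hsd17b6, Gls2, the liver glutaminase (a fall of 0.44, adjusted p = 0.0208), and Uroc1, of histidine breakdown (a fall of 0.33, adjusted p = 0.046), of which Gls2 lost its call without 3 and Uroc1 without 8 of the 9 libraries. Of 28 genes of the unfolded protein and integrated stress response, Manf was called higher (0.41 ± 0.105, adjusted p = 0.0277; lost without 5 of the 9 libraries) and Vldlr lower.

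Genes of liver tumours and fetal liver had 5 of 16 tested members called higher and none lower (9.67% of all tested genes were called higher), with a median of 0.975. The count was 1 or 2 without any young library, 3 without old HFD replicate 3 and 8 without old HFD replicate 2, and 4 were called higher and 1 lower without old HFD replicate 4. Old HFD replicates 3 and 4 had medians over the list of 1.11 and 1.21 above the young mean, compared with 0.319 and 0.285 for replicates 1 and 2. Meg3, an imprinted noncoding RNA named after its values were seen, measured 0.653, 0.478, 0.685, 0.502 and 0.467 CPM in young HFD and 6.68, 2.83, 6.01 and 1.77 CPM in old HFD (log2 fold change 2.95 ± 0.389, adjusted p = 0.00182) and kept its call without any 1 library. Ly6d, a surface protein of the Ly6 family, measured 4.33, 0.87, 2.32, 1.97 and 3.39 CPM in young HFD and 3.94, 7.69, 27.1 and 13 CPM in old HFD (log2 fold change 2.30 ± 0.581, adjusted p = 0.0298), and Cd24a, a surface marker of progenitor cells, rose by 1.16 ± 0.299 (adjusted p = 0.0284). The calls of Ly6d and Cd24a each ended without 6 of the 9 libraries (adjusted p up to 0.0716). The other 2 called members, Cbr3 and Tff3, named after their values were seen, had log2 fold changes of 1.5 and 3.28 (adjusted p = 0.0415 and 0.0258), and their calls ended without 7 and 4 of the 9 libraries.

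**Figure D5:**
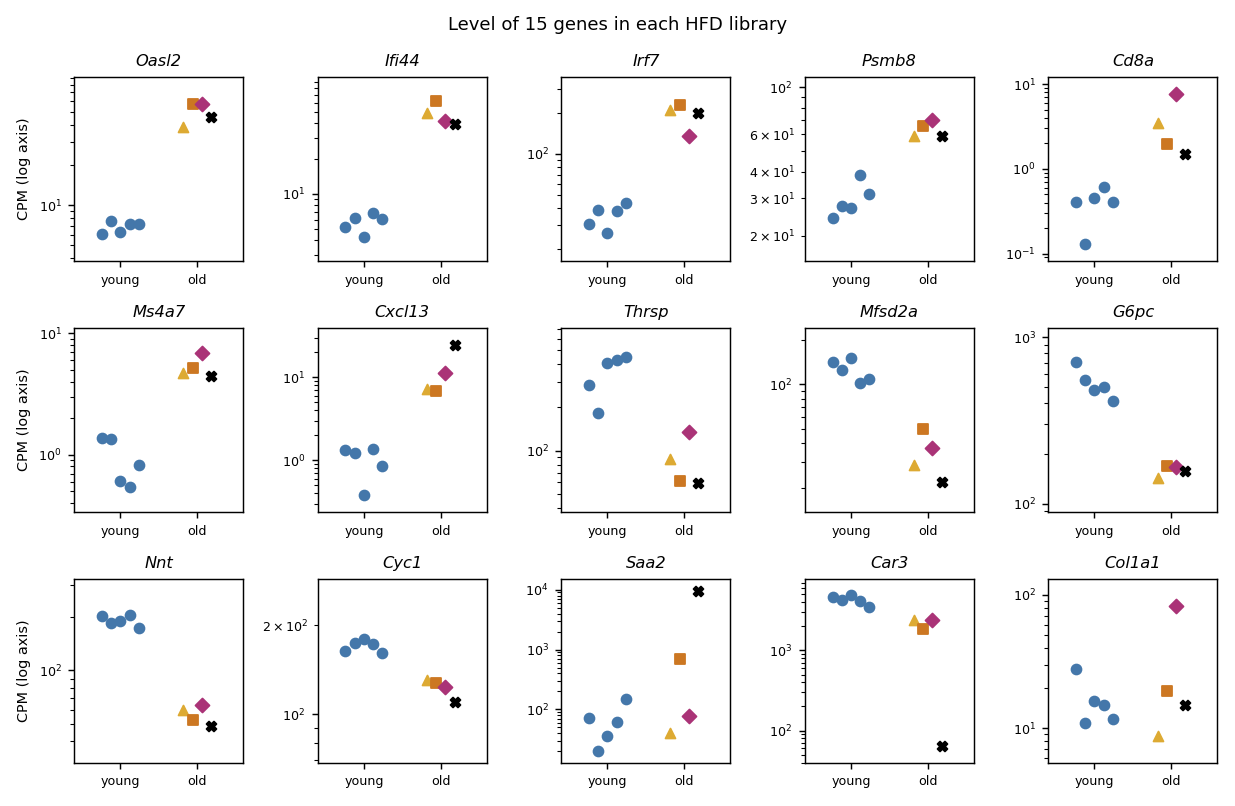
Level in CPM on a log axis of 15 genes in each HFD library; blue circles are young HFD replicates 1 to 5, and the triangle, square, diamond and cross are old HFD replicates 1, 2, 3 and 4. The interferon genes Oasl2, Ifi44 and Irf7 separate the ages in every library, and Car3 separates them too with its lowest value in old replicate 4, whereas Saa2 is highest in old replicate 4 and Col1a1 in old replicate 3.

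The age groups also differed in genes that differ between C57BL/6 substrains. Nnt, nicotinamide nucleotide transhydrogenase, which carries a deletion in the 6J substrain, measured 202, 184, 188, 203 and 173 CPM in young HFD and 59.9, 52.8, 64.3 and 48.5 CPM in old HFD and fell by 1.75 ± 0.0943 (adjusted p = 1.25e-05). Wdfy1 measured 50.4, 48.9, 52, 44.3 and 41.8 CPM in young HFD and 17.8, 17.3, 15.3 and 17.7 CPM in old HFD and fell by 1.48 ± 0.0801 (adjusted p = 1.25e-05). Entpd4 rose by 0.77 ± 0.0814 (adjusted p = 0.000486), with all of its 31-base words shared with other genes. Nnt and Wdfy1 were among the 6 genes of lowest adjusted p in the whole comparison, and a difference of substrain and a difference of age cannot be told apart in these libraries.

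To ask whether the age change on HFD differed from that on ND, all 18 libraries were fitted together and the difference of the 2 age effects was tested. Of 14275 genes 18 were called (0.126%) and 1662 had an unadjusted p under 0.05 (11.6%). The number called was 195 in DESeq2, 38 without old HFD replicate 4 and 0 with the replicate number as a block. The HFD libraries were counted without regard to strand and the ND libraries on 1 strand, so genes with an overlapping neighbour were not counted alike. Among the interferon-stimulated genes only Oas1a was called, with a log2 fold change of 2.97 on HFD and 0.958 on ND, a difference of 2.01 ± 0.372 (adjusted p = 0.0426). Ifi27, an interferon-induced gene outside that list that was named after its values were seen, rose by 2.20 on HFD and 0.929 on ND, a difference of 1.27 ± 0.24 (adjusted p = 0.0426). On ND 15 of the 46 interferon-stimulated genes were called higher, set against 6.89% of all genes, and the median was 0.524, but the difference between diets was not called for the other 45. That does not show equal age effects. Of the members described above, Oas1g, Oasl2, Isg15, Ifi44, Irf7 and Dtx3l had differences of 2.48, 1.83, 1.56, 1.47, 1.36 and 0.27. Gbp2 had one of -0.15. Their adjusted p was 0.053 to 0.954. The age effect of Rhbg, an ammonium carrier of pericentral hepatocytes, was 0.966 on HFD, where its call ended without 4 of the 9 libraries, and -1.33 on ND, a difference of 2.30 ± 0.336 (adjusted p = 0.011), and 61.4% of its exon bases overlap Gm38392. Manf, a secreted factor of endoplasmic reticulum stress, had age effects of 0.405 on HFD and -0.566 on ND (difference 0.971 ± 0.152, adjusted p = 0.0112).

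Further genes with a called difference, named after their values were seen, include Hhex, a transcription factor of the hepatic lineage, with age effects of -1.18 on HFD and -0.0942 on ND (difference -1.09, adjusted p = 0.0413). Serpina6, the plasma carrier of corticosteroids, had effects of -0.66 and 0.288 (difference -0.948, adjusted p = 0.045), and the mitochondrial adenylate kinase Ak4 had effects of -0.834 and 0.313 (difference -1.15, adjusted p = 0.0365). Atp1b1, a subunit of the sodium pump, had effects of -0.432 and 0.312 (difference -0.743, adjusted p = 0.0112), with 18.7% of its exon bases overlapped on the other strand. Ablim3, an actin-binding protein, had effects of 1.04 and -0.446 (difference 1.49, adjusted p = 0.011). Dtx4, a ubiquitin ligase, had effects of 0.389 and -0.348 (difference 0.736, adjusted p = 0.0426). Ncaph2, a condensin II subunit, had effects of -0.757 and 0.0559 (difference -0.813, adjusted p = 0.0112), and 19.7% of its exon bases overlap Sco2 and Tymp on the other strand. Tspyl4 (difference 1.58, adjusted p = 0.011) has 37.8% of its exon bases overlapped by Gm47512. For fatty acid synthesis the median age effect was -0.0958 on ND with 1 of 24 genes called lower (4.52% of all genes were called lower with age on ND), and no gene of that list was called for the difference.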

How the data were processed

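Whole liver RNA from 4 old HFD and 5 young HFD libraries was sequenced after poly(A) selection. Per the file headers, the authors deposited raw counts over exons from HOMER, on mm10 (GRCm38), with 1 transcript per gene. The authors' methods name STAR for alignment and HTSeq for counting. The headers give no strand option for the HFD table and a plus-strand option for the ND table, so reads of overlapping genes on opposite strands were not separated on HFD.

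Counts were tested in edgeR 4.0.16 (R 4.3.3) with its expression filter, TMM scaling, a robust quasi-likelihood test and Benjamini-Hochberg adjustment over all 14000 genes tested of 24537, at a threshold of 0.05. CPM values are counts per 1000000 of the scaled library size, and log2 CPM used a prior count of 2. Members and lists were chosen with earlier results of these data known. The genes named were the 10 highest and 10 lowest fold changes among called genes with no overlap that averaged 2 log2 CPM or more, up to 4 called members of lowest adjusted p per list that averaged 1 log2 CPM or more, the defining markers of each cell type, the 8 genes highest and 8 lowest in the most distant old library compared with the other old libraries, the 6 lowest adjusted p, and Nnt, Wdfy1 and Entpd4. Others are marked as chosen after their values were seen. Some genes that this rule names are not reported here. Shared sequence was counted in words of 31 bases, and overlap of exons was taken from GENCODE M21. In simulated counts for this comparison, run on 14000 genes, 52.2% of genes changed by 0.5, 82.1% of those changed by 1 and 93.8% of those changed by 2 on the log2 scale were recovered, and 12 calls (7.36%) were false. Only 67, 67 and 65 genes held these changes, and both ages were given the same spread per gene. The real old libraries were more spread than the young ones and many more genes were called, so these rates need not hold here. No pair of libraries of 1 group had the same counts within sampling noise (chi-square over its degrees of freedom, 19.7 to 352). The alternatives were DESeq2 1.42.0, other scalings, filters, thresholds and weights, and leaving out each library in turn.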

Additional observations from a re-analysis of the deposited data

Results flagged for a closer look

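Of 444 groups of 4 or 5 libraries looked at for the values in the text, 22 had a library whose gap to its nearest neighbour, as a share of the range of its group, passed the 95% limit of Dixon's test. Chance alone gives about 5% of groups, but Car3, Hamp, Cidec and Ces1f were named because they were low in old HFD replicate 4, so their gaps follow from that choice and the count of 22 is not set against chance. Old HFD replicate 4 was the lowest library for Hsd17b6 (0.868), Slco1a4 (0.83), Car3 (0.926), Hamp (0.886), Cidec (0.849), Ces1f (0.932) and the median of the lipid droplet list (0.939). It was the highest for Cd177 (0.831), S100a8 (0.922), Cp (0.935) and the median of the neutrophil list (0.86). Old HFD replicate 3 was the highest for Cd3g (0.871) and for the medians of the cytotoxic and NK list (0.867), the dendritic cell list (0.849), the stellate cell list (0.959) and the chemokine list (0.87), and it was the lowest for Wdfy1 (0.838). Old HFD replicate 1 was the lowest for Tapbp (0.91). Among the young libraries, replicate 1 was the lowest for Nudt7 (0.735), replicate 2 was the highest for Ndufb10 (0.827) and the lowest for the median of the dendritic cell list (0.794), and replicate 3 was the lowest for Cd22 (0.799).

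The age effect differed between diets in the test of the difference itself for the genes named with it. On the log2 scale the effect on HFD less that on ND was 2.3 for Rhbg, 2.01 for Oas1a, 1.58 for Tspyl4, 1.49 for Ablim3, 1.27 for Ifi27, 0.971 for Manf and 0.736 for Dtx4. It was -1.15 for Ak4, -1.09 for Hhex, -0.948 for Serpina6, -0.813 for Ncaph2 and -0.743 for Atp1b1. For Tspyl4, Ncaph2, Atp1b1 and Manf, whose exons overlap genes on the other strand over 37.8%, 19.7%, 18.7% and 8.85% of their bases, diet and the strand option of the counting cannot be told apart. The other 8 genes had no exon overlap on the other strand in the annotation.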

How the results depend on the processing

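No named gene changed direction in an alternative that was run on it. Over 148 genes and their settings, 2609 values stayed on the same side of the threshold, 592 lost the call, 41 gained it and 0 reversed. DESeq2 gave the most calls on HFD, at 3180. The number of genes called on HFD (2158) was 707 at an adjusted p under 0.01, 210 when tested against 1.5-fold and 1139 without old HFD replicates 3 and 4, and lay between 1270 and 2560 when 1 library was left out. The number called higher (1354) was 540, 196 and 759 in the same 3 settings, 873 to 1616 with 1 library left out and 1869 in DESeq2. The number called lower (804) was 167, 14 and 380 in those settings, 397 to 944 with 1 library left out and 1311 in DESeq2. The deviations of same-numbered libraries had correlations of -0.115, 0.192, 0.0954 and 0.13, within the -0.213 to 0.334 of differently numbered ones. These values cannot decide whether the replicate numbers pair the libraries, and the labels name no pairing. A fit with the replicate number as a block held 8 libraries and called 1205 genes, 864 higher and 341 lower, compared with 1628 for the same 8 without the block. The distance of old HFD replicate 4 was 1.561 times the mean of the other old libraries, and 1.935 times with the 500 most variable genes. The difference between diets was called for 18 genes, 195 in DESeq2, 38 without old HFD replicate 4, and 0 with the replicate block in edgeR, where 1474 had an unadjusted p under 0.05. The cause of these differences was not tested, beyond the smaller number of libraries or the stricter threshold itself. At this depth, markers with fewer counts than the filter requires, such as Ncr1 and Ly6g, could not be tested.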
